A study of Homo sapiens with 4 samples.

Results

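Transporters that exchange or cotransport chloride, bicarbonate, sulphate, protons, sodium, potassium and calcium were compared between SW480 cells labelled as overexpressing the homeobox gene HOXA5 and SW480 cells labelled as HOXA5 knock-down. SW480 is an established human colorectal adenocarcinoma line. Members were the probe sets with 1 gene symbol beginning with SLC4A, SLC8A, SLC9A, SLC12A, SLC24A or SLC26A and a number. This gave 105 of the 54675 probe sets on the arrays, for 47 of 19775 named genes; 4 further probe sets that list such a symbol together with another gene were left out. Of the 47 genes, 38 encode transporters. The other 9 match by symbol but do not encode transporters: 7 noncoding RNAs, the pseudogene SLC26A10P and SLC4A1AP, the gene of an adaptor protein that binds SLC4A1.

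The SLC4 and SLC26 families move bicarbonate, chloride and, in some SLC26 members, sulphate across the membrane. SLC9 proteins exchange sodium for protons, SLC12 proteins carry chloride together with sodium, potassium or both, and SLC8 and SLC24 proteins export calcium in exchange for sodium. In the colon, apical SLC9A3 and SLC26A3 take up sodium chloride, basolateral SLC12A2 loads secretory cells with chloride, and cytosolic pH is set by the balance of proton and bicarbonate transport.

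The 4 arrays came from SW480 cells transduced to change HOXA5: 2 were labelled HOXA5 knock-down and 2 HOXA5 overexpressing. No untransduced or vector control is among them, and the constructs are not described. A difference below is always overexpressing minus knock-down on the log2 scale, and it cannot be assigned to either manipulation alone. Values are signals from robust multi-array averaging (RMA), a method that corrects background, equalises the arrays' distributions and gives 1 log2 value per probe set. A signal depends on the probes, so a higher signal does not show that a gene is more abundant than another. Signals of different genes were ordered only to choose which genes to show and to say where members lie on the arrays' scale. Each gene was read from its probe set with the highest mean signal over all arrays. A call means a Benjamini-Hochberg adjusted p under 0.05 in limma. This linear model draws each gene's own spread toward a value estimated from all genes. Whether the replicates came from separate cultures is not stated. The p-values therefore reflect how far these particular samples vary, and that variation may be technical.

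Array medians lay between 5.77 and 5.81, and arrays correlated at 0.997 within groups and at 0.991 to 0.993 between them. HOXA5 itself is not reported here, so the labelled change in it was not checked on these arrays. Of 12 measured markers of colorectal epithelium, EPCAM, KRT19 and CDX2 were called higher in the overexpressing arrays and none lower. Over all genes, 2.74% were called higher and 2.03% lower. At an unadjusted p under 0.05 in limma, 0 of these markers were lower. EPCAM went from 3.73 ± 0.11 to 8.78 ± 0.04 (SD, n = 2). KRT19 went from 4.70 to 9.08, and CDH1 differed by 0.60 without passing (limma adjusted p = 0.0516). Of the 12 markers, 7 were above 0 and 5 below. The linear signals of these markers summed to 23679 to 23799 in the knock-down and 23103 to 24291 in the overexpressing arrays. KRT18 and KRT8, with mean signals of 13.84 and 12.96, dominate these sums. The sums therefore hardly register the rises of EPCAM and KRT19. KRT20 lay between 2.949 and 2.998. None of 10 stromal, 6 endothelial and 6 blood-cell markers was called (2, 1 and 0 at an unadjusted p under 0.05). The part of these marker differences in the results below was not tested.

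Among these 47 genes, SLC26A2, a plasma membrane sulphate transporter, rose by 0.93 and the kidney-type sodium-potassium-chloride cotransporter SLC12A1 rose by 0.45, the latter on only 1 of its 2 probe sets. No member gene was called lower. The largest negative differences, in the bicarbonate transporter SLC4A7 and the potassium-chloride cotransporter SLC12A7, did not pass the threshold. For 40 of the 47 genes (85.1%, against 84.7% of all genes) the groups differed by less than 0.25. Among partner genes of these transporters, the carbonic anhydrases CA12 and CA13 and the scaffold NHERF1 fell and the sulphotransferase gene CHST11 rose.

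In counts, 2 of 47 members (4.26%) were called higher, against 2.74% of all 19775 genes, and 0 were called lower, against 2.03% (limma; 4 members were higher and 6 lower at an unadjusted p under 0.05). In either direction 4.77% of all genes were called. At an unadjusted p under 0.05 in limma, 10 members (21.3%) passed, against 18.6% of all genes. The groups did not overlap for 24 members (51.1%), against 46.9% of all genes. The median difference was -0.02 over the members and -0.02 over all genes, with 22 members above 0 and 25 below. These shares lie near the background. The representing probe sets of 32 members had a mean signal under the median of 6.80 over all genes, and RMA gives no detection call.

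**Figure D1:**
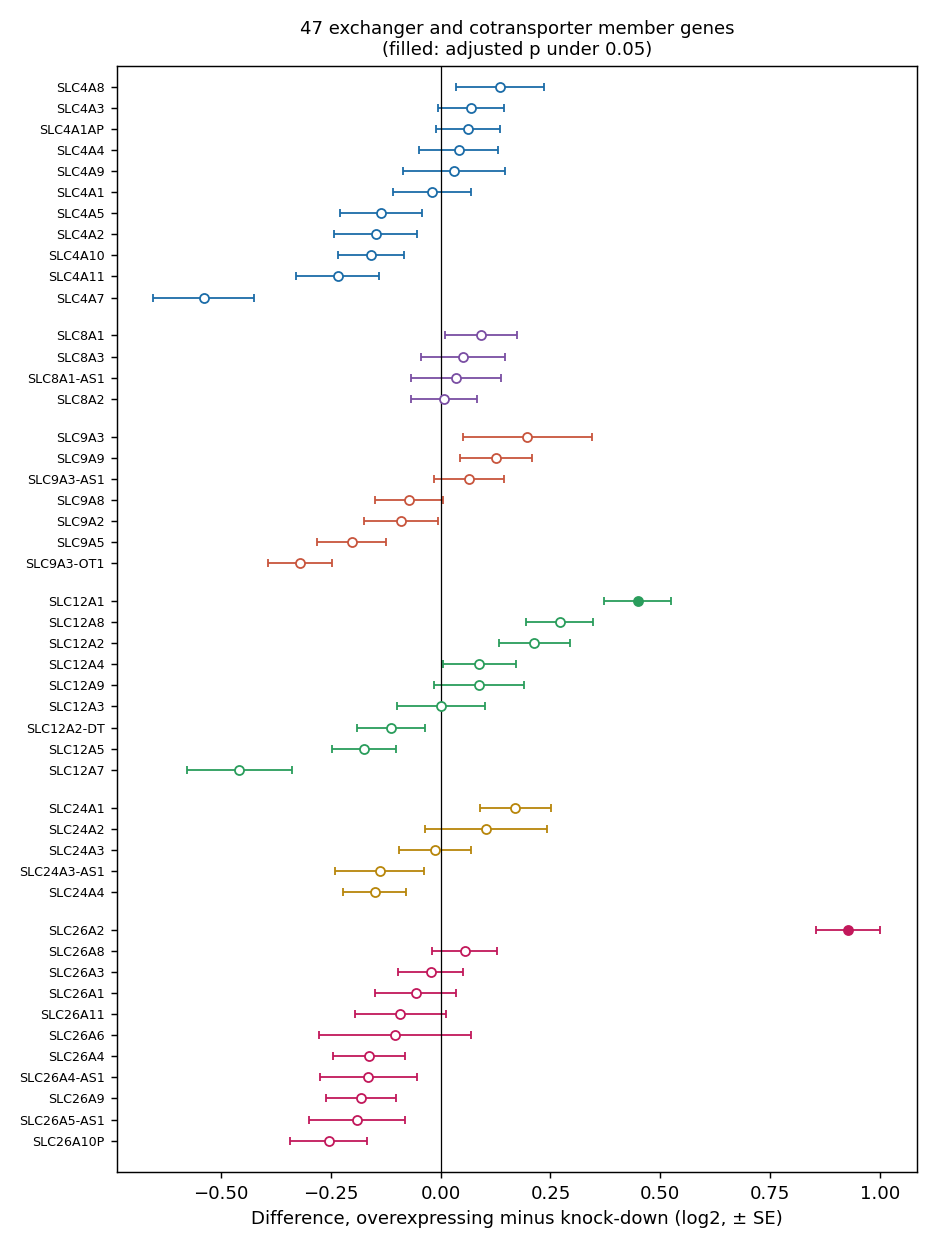
Difference between overexpressing and knock-down arrays (log2, x axis) for each of the 47 member genes (rows, coloured by family), with bars for the standard error from limma; filled points passed an adjusted p of 0.05. SLC26A2 at 0.93 and SLC12A1 at 0.45 are the filled points, and SLC4A7 at -0.54 and SLC12A7 at -0.46 lie farthest to the left without passing.

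SLC26A2 exchanges sulphate for chloride, hydroxide or oxalate and supplies the sulphate that cells attach to proteoglycans; its loss causes diastrophic dysplasia, a disorder of cartilage. Its brightest probe set read 8.90 and 8.89 on the arrays labelled knock-down, against 9.83 and 9.82 on those labelled overexpressing. All overexpressing values were above all knock-down values, and the replicate SDs were 0.006 and 0.008 (n = 2). The difference was 0.93 ± 0.07 (SE), a 1.90-fold rise (adjusted p = 0.00148).

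The other probe sets of SLC26A2 showed the same direction. The second gave 6.43 and 6.71 against 7.73 and 8.20, a difference of 1.39. The third gave 5.64 and 5.53 against 6.74 and 7.33, a difference of 1.45. On neither did the groups overlap. When each of 54613 probe sets was tested by itself, all 3 passed (adjusted p = 0.00509, 0.0220 and 0.0241), and they were the only called ones among the 105 member probe sets, or 2.86% against 1.97% of all probe sets. In the gene fit SLC26A2 kept its call without any 1 array (adjusted p 0.0415 to 0.0461). In the fit by probe set, by contrast, 0 member probe sets passed once any 1 of the 4 arrays was left out.

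The promoter of SLC26A2 is shown because it is the member called on every probe set, together with that of SLC12A1, the other called member. Both are the 250 bases before the gene's start on the plus strand in GRCh38.p14, from RefSeq. The SLC26A2 window lies at chr5:149960508-149960757 and that of SLC12A1 at chr15:48206052-48206301. Capitals mark TAAT or its reverse complement ATTA, the core that many homeodomain proteins bind.
SLC26A2: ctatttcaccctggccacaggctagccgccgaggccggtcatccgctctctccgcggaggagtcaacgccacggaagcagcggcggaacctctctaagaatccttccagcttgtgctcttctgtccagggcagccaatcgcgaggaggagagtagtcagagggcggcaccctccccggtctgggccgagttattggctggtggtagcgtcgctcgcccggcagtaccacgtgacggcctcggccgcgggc
SLC12A1: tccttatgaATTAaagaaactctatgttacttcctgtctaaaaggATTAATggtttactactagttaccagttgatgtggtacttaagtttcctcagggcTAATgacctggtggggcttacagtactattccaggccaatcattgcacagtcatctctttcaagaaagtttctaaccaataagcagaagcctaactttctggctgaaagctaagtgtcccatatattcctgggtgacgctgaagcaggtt

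The SLC26A2 window held no TAAT on either strand and was rich in G and C (66% of its bases, against a median of 58% over all windows). The SLC12A1 window held 4 matches, of which a pair overlapped, and 40.4% G and C. A match to TAAT on either strand was present in 47.4% of all 35116 windows of this length, and in 27 of 61 windows of the 41 member genes found in the table. The longer motif CTTTGAT, bound by TCF factors of the Wnt pathway, was in neither window and in 2.26% of all windows; 1 member window held it. These matches describe letters in a window and are not evidence of binding.

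The remaining SLC26 transporters differed little. SLC26A3, the apical chloride-bicarbonate exchanger of colonocytes whose loss causes congenital chloride diarrhoea, read 3.15 and 3.12 in the knock-down and 3.14 and 3.09 in the overexpressing arrays. The groups overlapped, and its other probe set lay between 2.84 and 2.99. SLC26A6, an anion exchanger, differed by -0.10, with knock-down replicates at 5.93 and 5.41 (SD 0.37, n = 2). SLC26A11, a lysosomal and plasma membrane anion transporter, was at 8.92 and 8.85 against 8.67 and 8.92 and also overlapped.
SLC26A1, a sulphate transporter of liver and kidney, differed by -0.06, and pendrin (SLC26A4), the chloride-iodide exchanger of thyroid and inner ear, by -0.16. SLC26A9, a chloride channel and transporter of stomach and airway, differed by -0.18, and the testis gene SLC26A8 by 0.05. None of these 7 passed in limma (0 at an unadjusted p under 0.05). Thus 2 of the 8 SLC26 transporters were above 0, SLC26A2 and SLC26A8.

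SLC12A1 encodes the loop diuretic-sensitive cotransporter of the kidney's thick ascending limb. Its brightest probe set read 5.41 and 5.48 in the knock-down and 5.92 and 5.87 in the overexpressing arrays, with no overlap, a difference of 0.45 ± 0.08 (SE, adjusted p = 0.0288). The other probe set, nearly as bright, read 5.66 and 5.60 against 5.72 and 5.44 and overlapped, at -0.05. The probe sets therefore disagreed, and both read below the median signal of all genes. The call was lost without any 1 array (adjusted p 0.161 to 0.217), with the replicate block (0.0747), with the mean of both probe sets (difference 0.20, adjusted p = 0.252) and when probe sets were tested singly (0.0687).

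SLC12A2, the widely expressed sodium-potassium-chloride cotransporter that drives intestinal chloride secretion, read 7.17 and 7.05 in the knock-down and 7.29 and 7.35 in the overexpressing arrays. The groups did not overlap, but the difference of 0.21 did not pass (adjusted p = 0.236), and its other probe set gave 0.03. The thiazide-sensitive sodium-chloride cotransporter SLC12A3 differed by 0.001. The potassium-chloride cotransporters carry the ions outward. Among them SLC12A7 read 9.53 and 9.84 in the knock-down and 9.16 and 9.29 in the overexpressing arrays, a difference of -0.46 ± 0.12 (SE, adjusted p = 0.104). The groups did not overlap, though the knock-down replicates had an SD of 0.22 (n = 2).
SLC12A4 differed by 0.09 on the brightest and by -0.08 to 0.14 on its other 4 probe sets, and the neuronal SLC12A5 read 3.31 on both knock-down arrays and 3.14 on both overexpressing arrays. SLC12A9, a family member without an agreed substrate, differed by 0.09, and SLC12A8 by 0.27 (4.76 and 4.82 against 5.03 and 5.08, adjusted p = 0.121). Of the 8 SLC12 transporters 6 were above 0. At an unadjusted p under 0.05 in limma, 3 were higher and 1 lower, or 50%, against 18.6% of all genes. Of these only SLC12A1 was called, or 12.5% of the 8, against 2.74% of all genes called higher.

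SLC4A7 is an electroneutral sodium bicarbonate cotransporter that brings base into the cell. Its brightest probe set read 8.37 and 8.35 in the knock-down and 7.98 and 7.67 in the overexpressing arrays. All overexpressing values were lower, with an SD of 0.22 (n = 2). The difference was -0.54 ± 0.11 (SE, adjusted p = 0.0571) and missed the threshold. Its other probe sets, all dimmer, gave -0.02, -0.29 and -0.15. When the variances followed signal intensity and moderation was robust, 2 settings changed together, SLC4A7, SLC12A7 and SLC9A3-OT1 passed as lower (adjusted p = 0.009375, 0.0186 and 0.0306). The same 3 passed when only genes at or above the median signal were tested. SLC4A7 also passed with arrays centred on their medians (0.03025), and SLC9A3-OT1 with the mean of probe sets (0.0465), so the count of 0 members lower depends on these settings.

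The anion exchanger SLC4A2, found in most epithelia, read 8.41 on both knock-down arrays and 8.16 and 8.37 on the overexpressing arrays (difference -0.15, adjusted p = 0.4865). SLC4A1, the red cell band 3 protein, differed by -0.02 and SLC4A3 by 0.07. The electrogenic sodium bicarbonate cotransporter SLC4A4, which loads base at the basolateral side of gut and kidney epithelia, differed by 0.04 and had 5 probe sets between -0.09 and 0.04.
Its relatives SLC4A5, SLC4A8 and SLC4A10 differed by -0.14, 0.14 and -0.16. SLC4A8 had a dimmer probe set at 5.31 and 5.27 against 5.57 and 5.59, a difference of 0.29 that did not pass (adjusted p = 0.182 by probe set). SLC4A11, mutated in a corneal dystrophy, differed by -0.23 (adjusted p = 0.262), with -0.01 on its other probe set, and SLC4A9 by 0.03. No SLC4 gene was called in limma, and 2 (SLC4A7 and SLC4A11) had an unadjusted p under 0.05. These were 20% of the 10 SLC4 transporters, against 18.6% of all genes. The adaptor gene SLC4A1AP read 8.77 and 8.80 against 8.84 and 8.85, a difference of 0.06.

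**Figure D2:**
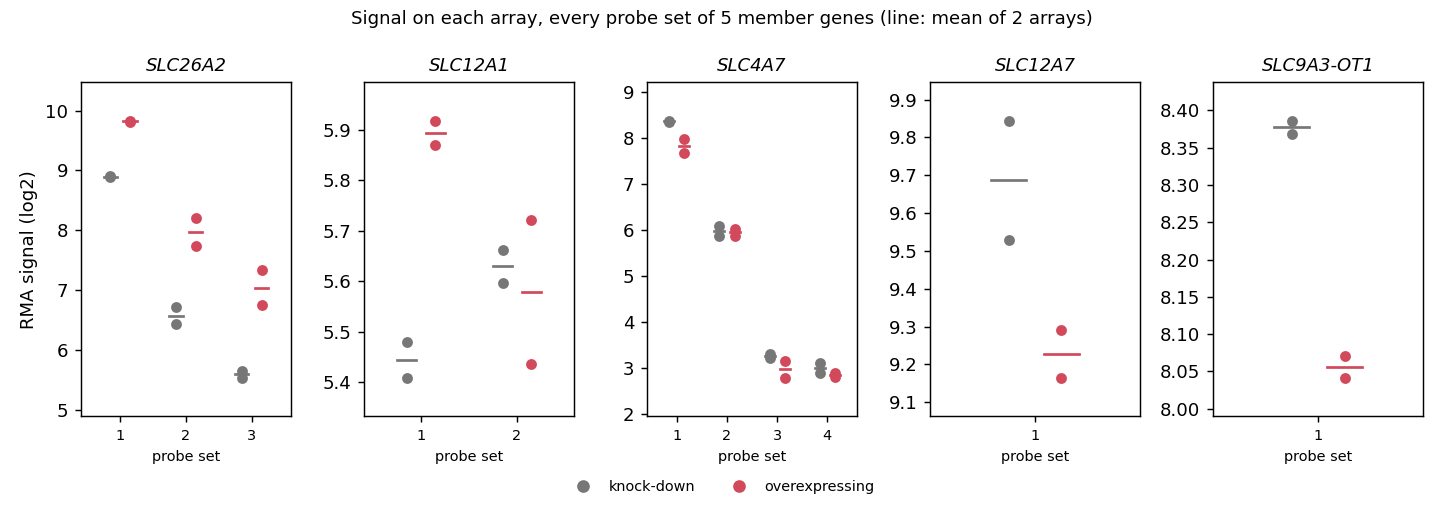
RMA signal (log2, y axis, with its own range in each panel) on each array for every probe set of SLC26A2, SLC12A1, SLC4A7, SLC12A7 and SLC9A3-OT1, numbered from the brightest to the dimmest; grey points are the 2 knock-down arrays, red points the 2 overexpressing arrays and short lines their means. All 3 probe sets of SLC26A2 separate upward by 0.93 to 1.45, whereas probe set 1 of SLC12A1 separates (0.45) and probe set 2 does not (-0.05).

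Among sodium-proton exchangers, SLC9A3, the apical exchanger that absorbs sodium in the gut, read 5.20 and 4.82 in the knock-down and 5.08 and 5.33 in the overexpressing arrays. The groups overlapped, and the difference of 0.20 did not pass (adjusted p = 0.568). SLC9A2, another apical exchanger of the gut, differed by -0.09 and by -0.06 on its other probe set. SLC9A5, known mainly from brain, differed by -0.20 without overlap (adjusted p = 0.237), but its dimmer probe sets gave 0.01 and -0.07. SLC9A8, found on Golgi and apical membranes, differed by -0.07 and the endosomal SLC9A9 by 0.13. None of these 5 exchangers was called in limma (1 at an unadjusted p under 0.05, or 20%, against 18.6% of all genes).

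SLC9A3-OT1, a noncoding RNA, read 8.37 and 8.39 in the knock-down and 8.04 and 8.07 in the overexpressing arrays. The groups did not overlap and the replicate SDs were 0.01 and 0.02 (n = 2), yet the difference of -0.32 ± 0.07 (SE) missed the threshold (adjusted p = 0.0711). SLC9A3-AS1, an antisense RNA, overlapped between groups at 0.06. The other noncoding members were also not called: SLC12A2-DT, divergent to SLC12A2, differed by -0.11, SLC8A1-AS1 by 0.03, SLC24A3-AS1 by -0.14, SLC26A4-AS1 by -0.165 and SLC26A5-AS1 by -0.19. SLC26A10P differed by -0.255 (adjusted p = 0.188). Of all 9 members that are not transporters, none was called in limma. An unadjusted p under 0.05 was found for 2 of them (22.2%, against 18.6% of all genes). How the probes treat strand is not given in the sources used here.

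Among the calcium exporters, SLC8A1, the sodium-calcium exchanger of heart and other tissues, read 6.24 and 6.20 in the knock-down and 6.38 and 6.24 in the overexpressing arrays on the brightest of 11 probe sets. The groups did not overlap, but the difference was 0.09 (adjusted p = 0.652), and the 11 probe sets ranged from -0.25 to 0.19. SLC8A2 differed by 0.01. SLC8A3, found mainly in brain and muscle, read 6.41 and 6.33 against 6.52 and 6.32 and overlapped.
SLC24 proteins also carry potassium. SLC24A1, first known from rod photoreceptors, read 6.40 and 6.38 against 6.63 and 6.50, a difference of 0.17 (adjusted p = 0.335), and its other probe sets ranged from -0.15 to 0.28. SLC24A2, SLC24A3 and SLC24A4 differed by 0.10, -0.01 and -0.15. Of the 7 SLC8 and SLC24 transporters 0 were called in limma, and 0 had an unadjusted p under 0.05.

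**Figure D3:**
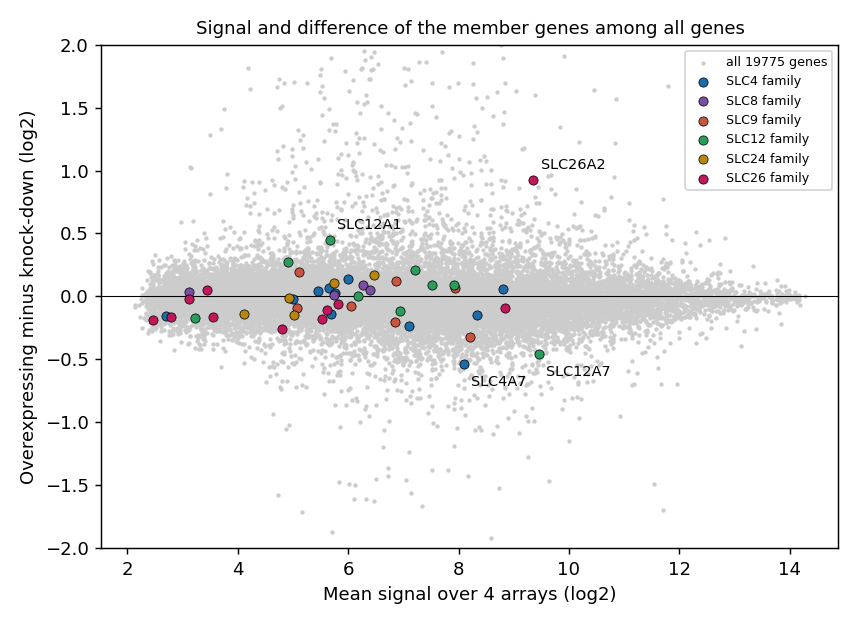
Mean signal over the 4 arrays (log2, x axis) against the difference between overexpressing and knock-down arrays (log2, y axis) for all 19775 genes (grey) and the 47 member genes (coloured by family); 58 genes beyond 2 in either direction lie outside the plotted range. SLC26A2 is the highest member at 0.93, 40 of the 47 members lie within 0.25 of 0, and 32 lie to the left of the median signal of 6.80.

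Proteins that work with these transporters were read from 8 lists with 121 entries, of which 109 genes were measured. Of these, 4 were called (3.67%, against 4.77% of all genes), 1 higher and 3 lower. Among 15 measured genes of sulphate activation and sulphate transfer, CHST11 alone was called. It encodes a Golgi enzyme that adds sulphate to chondroitin, a user of the sulphate that SLC26A2 imports. CHST11 read 7.97 and 7.85 in the knock-down and 9.32 and 9.36 in the overexpressing arrays. It rose by 1.43 ± 0.08 (SE), or 2.70-fold (adjusted p = 0.000388), and its other probe sets gave 1.508 and 1.495. It kept the call without any 1 array (highest adjusted p 0.0286). The enzymes that make the activated sulphate donor, PAPSS1 and PAPSS2, differed by 0.07 and -0.07.

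Carbonic anhydrases convert carbon dioxide to the bicarbonate and protons that SLC4, SLC26 and SLC9 proteins move. Of 11 measured, CA12 and CA13 were called lower and none was called higher. Over all genes, 2.03% were called lower and 2.74% higher. CA12, an enzyme with its active site outside the cell, read 9.11 and 9.24 in the knock-down and 8.04 and 8.13 in the overexpressing arrays. It fell by 1.09 ± 0.09 (SE), or was 2.13-fold lower (adjusted p = 0.00152), and 3 of its other 6 probe sets lay at -1.02 to -1.17, while the remaining 3 gave -0.40, -0.13 and 0.19. Without overexpressing replicate 1 it missed the threshold (adjusted p = 0.0534). The cytosolic CA13 read 7.76 and 7.94 against 7.12 and 7.175. It fell by 0.70 ± 0.09 (SE, adjusted p = 0.0105), its other probe set gave -0.25, and without any 1 array it no longer passed (0.0637 to 0.137).

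Among 11 measured partners of sodium-proton exchangers 1 gene was called, against 4.77% of all genes. This was NHERF1, the scaffold that ties SLC9A3 and the chloride channel CFTR to ezrin. It read 9.67 and 9.87 in the knock-down and 8.81 and 8.97 in the overexpressing arrays, without overlap. It fell by 0.88 ± 0.10 (SE), or was 1.85-fold lower (adjusted p = 0.00726), on its only probe set, but leaving out any 1 array ended the call (0.0578 to 0.116). Ezrin (EZR) differed by -0.01, and the calcineurin B homologue CHP1, an exchanger cofactor, by -0.20 (adjusted p = 0.222).

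**Figure D4:**
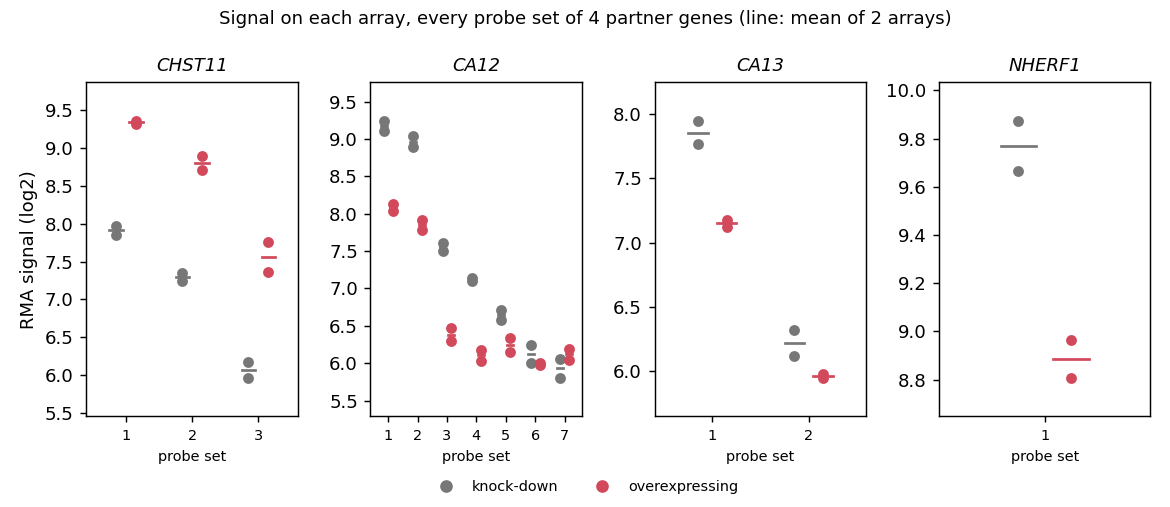
RMA signal (log2, y axis, with its own range in each panel) on each array for every probe set of CHST11, CA12, CA13 and NHERF1, numbered from the brightest to the dimmest; grey points are the 2 knock-down arrays, red points the 2 overexpressing arrays and short lines their means. All 3 probe sets of CHST11 and the 5 brightest of CA12 separate between groups, and the 2 dimmest of CA12 overlap.

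In the other 5 lists, with 72 measured genes, none was called in limma. Over all genes, 4.77% were called and 18.6% had an unadjusted p under 0.05. Among 13 WNK and SPAK kinase genes and regulators of SLC12 cotransport (1 at an unadjusted p under 0.05), the kinase SGK1 differed by -0.06 and the ubiquitin ligase subunit CUL3 by 0.01. Among 10 genes of the sodium-potassium pump and its FXYD regulators (2 unadjusted), ATP1B3 differed by -0.12 and ATP1B1 by 0.28 (adjusted p = 0.166). Calcium pumps, the other route of calcium out of the cytosol, had 9 measured genes (2 unadjusted), with ATP2A2 at 0.04 and ATP2B1 at 0.07. Of 19 vacuolar proton pump subunits (2 unadjusted), ATP6V0C differed by 0.02 and ATP6V0E1 by 0.01. Of 21 chloride channel genes (3 unadjusted), CLIC1 differed by -0.03 and LRRC8A, a subunit of the volume-regulated anion channel, by -0.20 (adjusted p = 0.269).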

How the data were processed

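RNA of 4 SW480 samples was hybridised to Affymetrix arrays, 1 array per sample, grouped by title. The deposited values are on the log2 scale, and the submitters' processing notes name RMA and affy as the authors' tools. Their versions, the probe definitions and a genome build were not given in the sources used here. The method gives arrays like distributions and no detection call. With arrays, precision depends on how many there are.

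Of 54675 probe sets, 62 controls, 1801 with several symbols and 11721 not listed with a gene were left out of the fit by gene. Members were found by the platform annotation's symbol, and list genes by current RefSeq symbol. limma 3.58.1 in R 4.3.3 (lmFit on group, eBayes defaults, two-sided, Benjamini-Hochberg over 19775 genes, or 54613 probe sets) had 2 residual degrees of freedom and a prior worth 4.17. A value tested alone in 2 against 2 arrays cannot go below an exact permutation p of 0.333. Tested on simulated data for the 19775 genes, the fit recovered 18% of changes of 0.5, 98% of 1 and of 2, and 100% of 3 (log2), with 3 false calls. The simulated noise was normal, independent between arrays and drawn from the spread that limma itself had fitted. It held no variation shared by a culture or batch, so these rates do not cover such variation.

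Members and lists were chosen with earlier results of these data known. All member genes are named; array values are given for called members, for the one with the highest signal in each family and for some others, chosen after their values were seen. Of each list, called genes or otherwise the 2 with the highest signal are named. EZR, CHP1, PAPSS1 and PAPSS2 were added after their values were seen. Alternatives were a replicate block, an intensity trend with robust moderation, arrays centred on their medians, quantile normalization applied again, only genes at or above the median signal (the filter on dim genes), the mean of probe sets, a fit by probe set, a threshold of 0.1 and leaving out each array.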

Additional observations from a re-analysis of the deposited data

How the results depend on the processing

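SLC26A2 and CHST11 kept direction and call under all 12 alternatives (differences 0.91 to 1.26 and 1.37 to 1.49). With the replicate block, 520 genes in all and 1 member higher passed, against 944 and 2; same-numbered arrays' deviations correlated at 0.151 over genes, and nothing but the number pairs them. The block ended the call of SLC12A1 and of no other called member or list gene. Members called higher were 1 with the filter on dim genes, with the mean of probe sets and by probe set, and 1 without any 1 array. Members called lower were 3 with the intensity trend and robust moderation, 1 with centring (SLC4A7), 3 with the filter on dim genes, 1 with the mean of probe sets (SLC9A3-OT1) and 2 at a threshold of 0.1. The intensity trend and robust moderation, changed together, gave 1822 genes in all, 6 member probe sets and 12 list genes; the filter 10 list genes; a threshold of 0.1 gave 1561 genes and 9 list genes. Leaving out 1 array gave 172 to 237 genes in all, 0 to 0 member probe sets and 1 to 2 list genes; the group left with 1 array is then taken to vary like the other. The share of calls that were higher was 57.4%, 40.5% with the filter on dim genes and 76.5% to 84.0% without 1 array. The members' median difference was -0.02 and ran from -0.09 to 0.02 over the alternatives; no single one moved it from -0.02 by more than the spread between replicates (0.08). No gene followed through the alternatives changed direction. The causes of these changes were not tested.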
